A study of Mus musculus with 12 samples.

Results

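Choroid plexus cells of cluster 4 are the cells that the authors assigned both to the choroid plexus and to cluster 4 of their graph clustering, among 21 clusters and 12 major cell types. The rule found 1601 cells, which is 49.5% of the 3233 choroid plexus cells and part of 19834 cells in all. The other choroid plexus cells, 1632 in number, formed cluster 3 and serve here for comparison.

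The cells came from single-cell RNA sequencing of dissociated hippocampi of female C57/BL6J mice aged 9 weeks, with 10x Genomics 3′ libraries in which each unique molecular identifier (UMI) counts 1 captured RNA molecule. The study compared mice given cisplatin, a platinum chemotherapy agent that crosslinks DNA, with mice given phosphate-buffered saline (PBS), and within each drug arm compared mice exposed to gamma sensory stimulation with mice left unstimulated. Stimulation combined light flicker and sound pulses at 40 Hz for 1 h a day over 21 days, started with the first injection, and hippocampi were dissected on day 22. The labels state no cisplatin dose. The labels name the 4 groups Cisplatin stim, Cisplatin nonstim, PBS stim and PBS nonstim, with 3 libraries each. All groups share strain, sex, age and dissociation. Replicate 1 of each group holds the 2 hippocampi of 1 animal, and replicates 2 and 3 each pool 4 hippocampi of 2 animals, so no value below belongs to a single animal except in replicate 1. Library names of replicate 1 carry a different prefix from those of replicates 2 and 3, and these 2 sets are called the first and second batch here in that sense only.

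The choroid plexus is a sheet of secretory epithelium over a vascular stroma inside the brain ventricles. Its epithelial cells make cerebrospinal fluid by moving ions and water across the cell layer, close the barrier between blood and fluid with tight junctions, and release carrier proteins and growth factors. The tissue is not part of the hippocampus itself but lies against it in the ventricle.

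Cells of cluster 4 were unevenly spread over the libraries. Cisplatin stim libraries 1, 2 and 3 held 44, 131 and 110 of them, Cisplatin nonstim libraries 95, 510 and 58, PBS stim libraries 1, 142 and 319, and PBS nonstim libraries 7, 81 and 103. The first-batch PBS libraries, with 1 and 7 cells, were too small to fit, so each PBS group rests on its 2 second-batch libraries, while each cisplatin group has 3. Over the 10 libraries with at least 10 cells, cluster 4 made up 44.4% to 50.7% of choroid plexus cells in the 6 cisplatin libraries and 51.3% to 60.4% in the 4 PBS libraries. In the first-batch PBS libraries it made up less than in any cisplatin library. The share was 24.1% of 29 choroid plexus cells in PBS nonstim 1 and 5.56% of 18 in PBS stim 1. These shares were not tested, since the clusters were built from genes that also differ between the groups. The summed depth of cluster 4 ran between 228128 and 2876015 UMIs per library. Of 1600 distinct cell barcodes in cluster 4, 14 (0.875%) also occurred in another library.

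The 7-cell library PBS nonstim 1 bears on every cisplatin result that follows. It holds 46775 UMIs in cluster 4 and comes from the first batch. Of the 188 genes called between Cisplatin nonstim and PBS nonstim for which at least 20 UMIs were expected in it, 174 (92.6%) lay closer to the mean of the Cisplatin nonstim libraries than to the mean of the second-batch PBS nonstim libraries. Its level of Kl was 470 CPM (UMIs scaled to a common library total), with an exact Poisson 95% interval of 295 to 712 that covers counting error only. Its level of Prlr was 385 CPM (228 to 608). Both values lie within or next to the range of the Cisplatin nonstim libraries described below. No first-batch PBS library entered the fit, so the cisplatin comparison is one with second-batch PBS libraries only, adjusted for batch from the cisplatin libraries. Whether the first-batch PBS libraries differ from the second-batch ones by batch, by animal or by an error in their labels was not tested, and the number of calls is given below with this library added.

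The ribosomal RNA-like share moved with the same split. Transcripts that carry ribosomal RNA sequence, such as Lars2 and AY036118, took 0.250% to 0.641% of the summed UMIs of cluster 4 in the 6 cisplatin libraries and 1.90% to 5.75% in the 4 fitted PBS libraries, but 0.342% in PBS nonstim 1. In cluster 3 it was 0.342% in PBS nonstim 1 (22 cells) and 0.296% in PBS stim 1 (17 cells), against 1.71% to 4.07% in the second-batch PBS libraries, so both first-batch PBS libraries lay within the cisplatin range of 0.216% to 0.448%. The groups of fitted libraries did not overlap. The mitochondrial share of the sums was 7.13% to 17.4% in the cisplatin libraries and 9.49% to 18.3% in the fitted PBS libraries, and these ranges overlapped. Counts of calls with the first share as a covariate, and in cells with at most 10% mitochondrial UMIs, are given beside the results. The first share splits the fitted libraries by drug, so a fit with it as a covariate cannot separate the share from the drug. Calls lost in that fit are therefore assigned to neither.

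**Figure D1:**
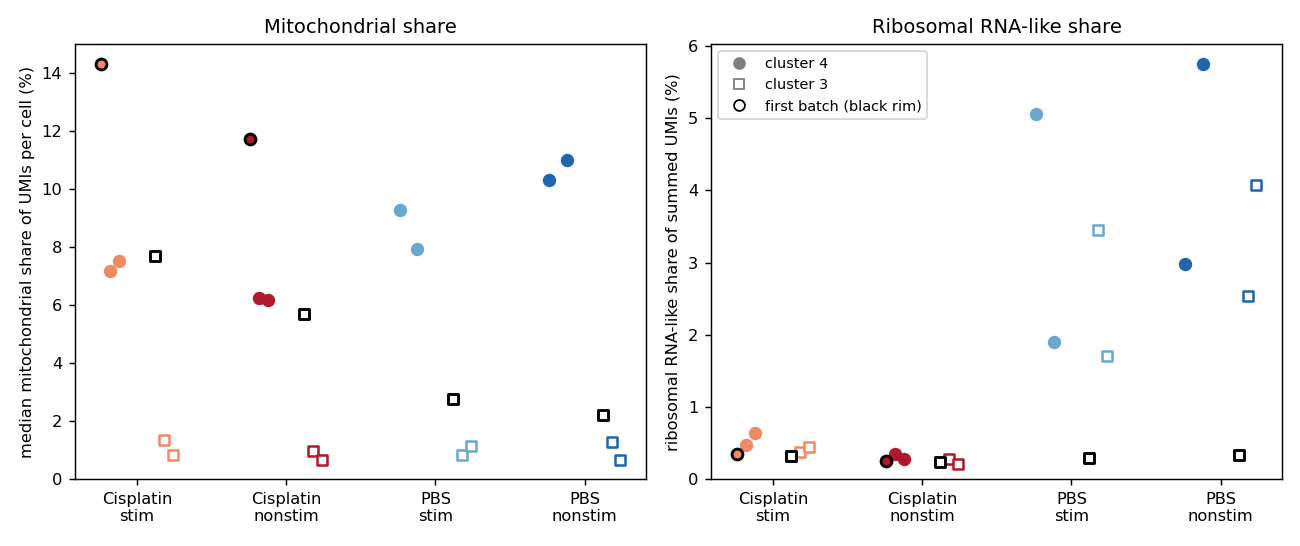
Median mitochondrial share of UMIs per cell (left, %) and share of ribosomal RNA-like transcripts in the summed UMIs (right, %), per library with at least 10 cells, by group. Filled circles are cluster 4, open squares are cluster 3, and black rims mark the first batch. In the left plot cluster 4 lies at 6.19% to 14.3% and cluster 3 at 0.661% to 7.70%. In the right plot the cisplatin libraries lie below the second-batch PBS libraries in both clusters.

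The cells fit their label. Ttr, which encodes the thyroid hormone and retinol carrier transthyretin, reached 235323 CPM when the UMIs of all cluster 4 cells were pooled, against 112915 CPM in cluster 3. It had a UMI in 100% of cells of both clusters, but also in 52.3% to 76.4% of the cells of other types at 311 to 717 CPM, so a Ttr UMI alone does not mark a cell. Ecrg4, a secreted peptide hormone precursor, had a UMI in 97.4% of cluster 4 cells against 79.9% of cluster 3 cells, with 87.5% in fibroblasts and 73.4% in ependymal cells. Sostdc1, a secreted antagonist of BMP and Wnt signalling, had one in 82.1% against 47.9%, with 36.4% in ependymal cells and at most 2.03% in the rest. Prlr, the prolactin receptor, had one in 74.9% against 32.8%, with at most 3.06% in any other type.

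Defining markers of other cell types were low in cluster 4. Summed over each list, oligodendrocyte markers came to 314 CPM in cluster 4 against 54246 CPM in oligodendrocytes, microglial markers to 125 against 33713 CPM, astrocyte markers to 123 against 26110 CPM and endothelial markers to 52.2 against 18201 CPM, each against the authors' own cells of that type. Ependymal markers came to 676 CPM in cluster 4 against 11219 CPM in ependymal cells. Fibroblast markers came to 38.4 CPM against 4745 CPM, and neither Col3a1 nor Lum had a UMI in any of the 10 libraries.

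Cluster 4 differed from cluster 3 chiefly in what kinds of RNA its cells carried, and less in how much. A cluster 4 cell held a median of 3928 UMIs and 1313 genes, against 3559.5 UMIs and 1413 genes in cluster 3. Mitochondrially encoded RNA made up a median of 7.75% of a cluster 4 cell's UMIs, with quartiles at 4.92% and 12.2%, against 1.24% in cluster 3. The library medians of this share were higher in cluster 4 in 10 of 10 libraries. More than 10% mitochondrial UMIs were found in 559 cluster 4 cells (34.9%) and in 45 cluster 3 cells (2.76%). The unspliced share was lower in cluster 4 in 10 of 10 libraries, with medians of 4.48% and 5.39% over cells. Doublet scores were low in both, with medians of 0.0154 in cluster 4 and 0.0110 in cluster 3 and a highest value of 0.0849 in cluster 4 and 0.0770 in cluster 3.

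Gene by gene, the comparison of the clusters is a description with no test, since the clusters were made from these genes. Among 2882 genes with a mean of at least 50 CPM in either cluster, 384 (13.3%) were higher in cluster 4 in all 10 libraries and 1495 (51.9%) were lower in all 10. The median log2 ratio of cluster 4 over cluster 3, taken over libraries after adding 1 CPM, was -0.60 over these genes. The distribution was lopsided, with a few genes far higher in cluster 4 and many slightly lower: 361 genes were at least 2-fold higher and 221 at least 2-fold lower. Among 9431 genes with at least 5 CPM, the shares were 10.0% and 19.2%, and the median was -0.26. CPM are shares of a sum, so a larger share for some genes lowers the CPM of all others. Ttr, Ecrg4, Sostdc1 and Prlr together took 239171 CPM in pooled cluster 4 cells and 114319 CPM in cluster 3. The mitochondrial share of the sums had medians over libraries of 9.76% in cluster 4 and 1.47% in cluster 3. How much of the lower ratios comes from these shares was not tested.

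The 12 genes highest in cluster 4 by this ratio are Igf1r, A2m, Atp2b3, Tapbp, Cntn1, Col8a1, Xist, Abca2, mt-Nd3, Ptprf, Gaa and Plxnb2, with log2 ratios between 3.00 and 3.41, each higher in 10 of 10 libraries except Igf1r in 9. The calcium pump gene Atp2b3 averaged 215 ± 115 CPM in cluster 4 and 23.1 ± 12.7 CPM in cluster 3 (SD, n = 10 libraries each). The acid glucosidase gene Gaa, whose product breaks down glycogen in lysosomes, averaged 172 ± 58.9 CPM in cluster 4 and 21.3 ± 11.1 CPM in cluster 3. Xist, the noncoding RNA that coats the inactive X chromosome in the nucleus, averaged 75.9 ± 60.8 CPM in cluster 4 and 4.93 ± 4.44 CPM in cluster 3.

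The 12 lowest genes moved far less. They are Exosc3, Pafah1b3, Mrpl35, Dtymk, Bphl, Gstp1, Fam81b, Frg1, Pdcl3, Snrpa1, Trappc4 and Med28, with log2 ratios between -1.36 and -1.26, each lower in 10 of 10 libraries. Bphl, a hydrolase gene, averaged 122 ± 39.9 CPM in cluster 4 and 284 ± 34.7 CPM in cluster 3. Exosc3, a subunit of the RNA exosome, averaged 20.1 ± 4.87 CPM in cluster 4 and 53.5 ± 8.26 CPM in cluster 3.

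Grouped by function, the machinery of fluid secretion was higher in cluster 4. Of 22 measured genes for ion and water transport, 17 were higher in all 10 libraries and 1 was lower, with a median log2 ratio of 1.94 against -0.26 over all genes. The sodium, potassium and chloride cotransporter gene Slc12a2 averaged 451 ± 174 CPM in cluster 4 and 62.4 ± 28.3 CPM in cluster 3. The water channel gene Aqp1 averaged 122 ± 42.6 CPM in cluster 4 and 20.3 ± 6.08 CPM in cluster 3. Not every transport gene shared this, since the cation channel gene Trpm3 averaged 798 ± 294 CPM in cluster 4 and 529 ± 91.3 CPM in cluster 3 with overlapping ranges of 1 SD. The examples in this and the following paragraphs on the clusters were chosen after their values were seen.

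Transporters, secreted proteins and proteins of the secretory pathway showed the same pattern. Of 24 nutrient and drug transporters, 20 were higher in all 10 libraries and 0 lower, with a median of 2.20. Of 20 secreted proteins, 16 were higher and 0 lower, with a median of 1.70. The lysophospholipase gene Enpp2 averaged 16064 ± 4242 CPM in cluster 4 and 2342 ± 547 CPM in cluster 3. Of 19 chaperones of the endoplasmic reticulum (ER), 13 were higher in all libraries and 0 lower, with a median of 1.98. Of 29 lysosomal enzymes and membrane proteins, 27 were higher and 0 lower, with a median of 2.12. The cathepsin gene Ctsd, a lysosomal protease, averaged 1032 ± 85.8 CPM in cluster 4 and 177 ± 34.5 CPM in cluster 3. Of 12 genes for basement membrane and stromal signals, 10 were higher and 0 lower.

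Identity genes were more often higher than lower in cluster 4. Of 20 genes of choroid plexus identity, 11 were higher in all libraries and 3 lower, with a median log2 ratio of 1.33. Over all genes with at least 5 CPM the shares were 10.0% higher and 19.2% lower. Folr1, the folate receptor that carries folate into the fluid, averaged 789 ± 88.8 CPM in cluster 4 and 224 ± 54.0 CPM in cluster 3. Otx2, the homeobox transcription factor that maintains the tissue, averaged 238 ± 54.6 CPM in cluster 4 and 267 ± 40.3 CPM in cluster 3 and was higher in cluster 4 in only 2 of 10 libraries. Foxj1, a regulator of ciliated cells, had a log2 ratio of -0.18.

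Within energy metabolism, the mitochondrial genome and the nuclear genome went opposite ways. All 13 mitochondrially encoded messenger RNAs were higher in cluster 4 in all 10 libraries, with a median log2 ratio of 2.84 and together 628 ± 242 UMIs per cell in cluster 4 against 88.7 ± 46.5 in cluster 3 (SD, n = 10). All 54 nuclear genes for subunits of the respiratory chain and ATP synthase were lower in all 10 libraries, with a median of -0.89. Counted as UMIs per cell, they came to 258 ± 49.0 UMIs in cluster 4 against 441 ± 147 in cluster 3 and were lower in cluster 4 in 10 of 10 libraries. Ndufa4, a small subunit of that chain, averaged 2116 ± 512 CPM in cluster 4 and 4028 ± 403 CPM in cluster 3.

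Lists of cytosolic machinery were lower as well. All 51 measured ribosomal protein genes were lower in cluster 4 in all 10 libraries, with a median of -0.78. So were 29 of 31 proteasome subunits and 12 of 15 glycolysis genes. Lower levels were common over all genes as well. Of genes with at least 50 CPM, 51.9% were lower in all 10 libraries, and of genes with at least 5 CPM, 19.2%. Noncoding RNAs kept in the nucleus were higher, with 4 of 6 higher in all libraries and a median of 2.55. Malat1, one of them, averaged 1306 ± 1132 CPM in cluster 4 and 265 ± 216 CPM in cluster 3. Immediate early genes, which rise during tissue dissociation, had a median of 0.02, and p53 targets one of -0.33. The lists of ribosomal proteins, proteasome subunits, lysosomal proteins, glycolysis and nuclear noncoding RNAs were drawn up after the values were seen.

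**Figure D2:**
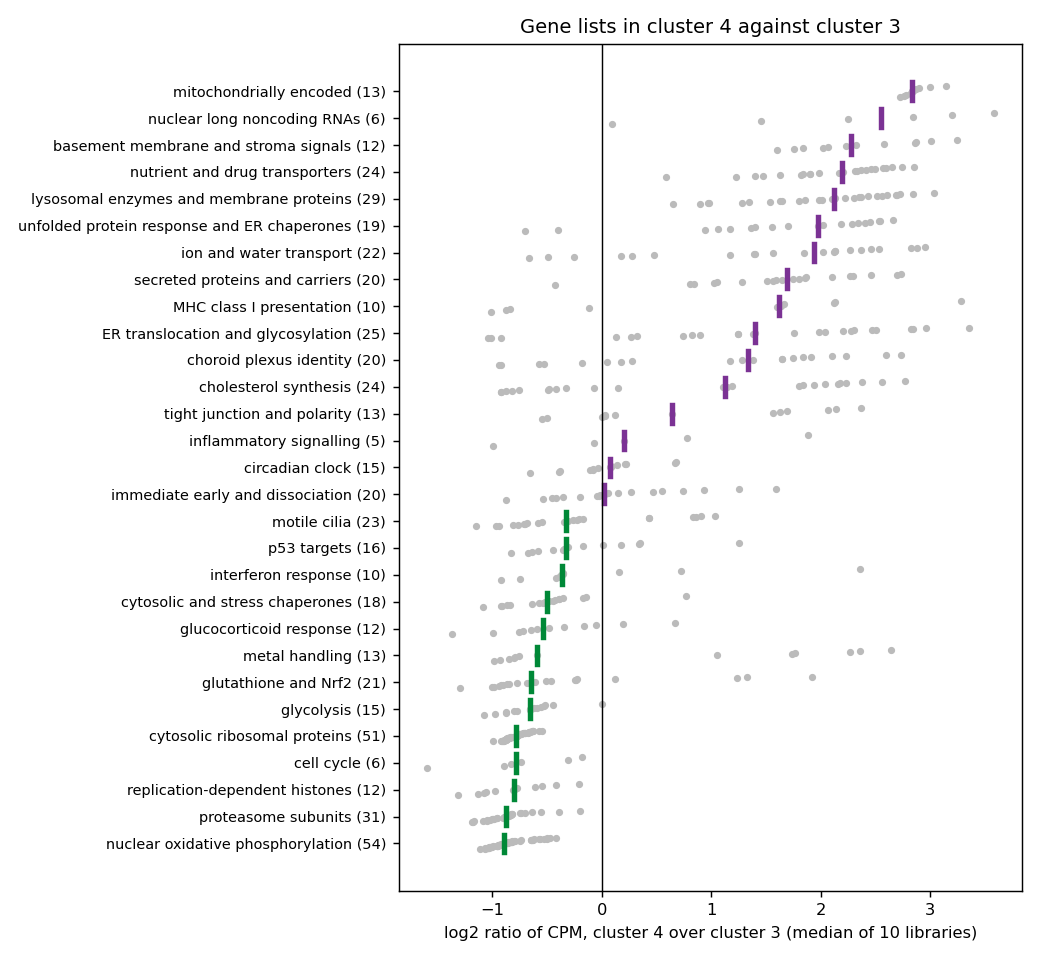
Log2 ratio of CPM in cluster 4 over cluster 3 for each gene of each list (grey points, median of 10 libraries) and the median of the list (bar), with the number of genes measured in brackets. Mitochondrially encoded genes have the highest median, 2.84, and nuclear genes of oxidative phosphorylation the lowest, -0.89.

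Cisplatin without stimulation was compared with PBS without stimulation over 3 and 2 libraries. In cluster 4, 1217 of 6662 genes tested were higher (18.3%) and 1372 lower (20.6%) in Cisplatin nonstim at an edgeR adjusted p under 0.05, together 38.9%. The p-values rest on a spread estimated over all 10 fitted libraries of the 4 groups, with PBS libraries from the second batch only. The median log2 fold change over all genes was -0.07. The count was 908 (350 higher, 558 lower) when PBS nonstim 1 with its 7 cells was added, 1129 without PBS nonstim 3, 577 (233 higher, 344 lower) in cells with at most 10% mitochondrial UMIs, and 168 (33 higher, 135 lower) with the ribosomal RNA-like share as a covariate. Of 77 called genes considered for naming in the text, 22 kept their call and direction under every alternative tried, and those lead the account below. The covariate is 1 of these alternatives, and a call lost with it does not tell the share from the drug. Fewer cells of a state within the cluster and less RNA per cell cannot be told apart in these sums.

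Igf2, Kl, Prlr and Tmem72 fell after cisplatin, while the list of secreted proteins was mixed. Of 17 secreted proteins and carriers tested, 7 were higher and 4 lower, with a median log2 fold change of 0.28, and these counts were 2 and 2 of 18 with PBS nonstim 1 added and 0 and 1 with the ribosomal RNA-like covariate. Igf2, an insulin-like growth factor that the choroid plexus releases into the fluid, had 181, 221 and 207 CPM in Cisplatin nonstim libraries, against 1097 and 1252 CPM in PBS nonstim libraries (log2 fold change -2.41, SE 0.19, edgeR adjusted p = 7.51e-13). Kl encodes the anti-ageing hormone Klotho and had 606, 471 and 522 CPM in Cisplatin nonstim, against 2270.1 and 2057 CPM in PBS nonstim (log2 fold change -2.05, SE 0.18, edgeR adjusted p = 1.31e-11). Prlr had 333, 403 and 365 CPM in Cisplatin nonstim, against 1609.7 and 1659 CPM in PBS nonstim (log2 fold change -2.06, SE 0.19, edgeR adjusted p = 1.80e-11). In each of the 3 genes all Cisplatin nonstim libraries lay below both fitted PBS nonstim libraries, and PBS nonstim 1 lay with the cisplatin ones or below them. On GRCm38.p6, Igf2 lies at chr7:142650768-142666816, Kl at chr5:150952607-150993817 and Prlr at chr15:10177238-10349190. Tmem72, a membrane protein gene typical of the tissue, fell by the same order, to 118 ± 22.5 CPM in Cisplatin nonstim against 400.1 ± 25.4 CPM in PBS nonstim (mean ± SD, n = 3 and 2, log2 fold change -1.86, SE 0.20, edgeR adjusted p = 4.64e-09). These 4 calls held under every alternative tried. For Igf2 a fraction of 0.619 of its 31-base words is shared with other genes, so its reads may be split with theirs. This fraction is 0.0151 for Kl, 0.0188 for Prlr and 0.149 for Tmem72. The effect of this sharing on the Igf2 counts was not tested.

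The promoters of Kl and Igf2 are shown because both genes fell together and keep their calls under every alternative. They run 250 bases before to 50 bases after an annotated start, from RefSeq on GRCm38.p6, and were searched on both strands for TAATCC, the core motif of Otx2-type homeodomain factors, and its reverse complement GGATTA. For Kl the window is chr5:150952357-150952656 on the plus strand and holds no match. Of 4 annotated Igf2 starts the window chr7:142658755-142659054 on the minus strand, shown here, is the one with a match, in capitals.
Kl: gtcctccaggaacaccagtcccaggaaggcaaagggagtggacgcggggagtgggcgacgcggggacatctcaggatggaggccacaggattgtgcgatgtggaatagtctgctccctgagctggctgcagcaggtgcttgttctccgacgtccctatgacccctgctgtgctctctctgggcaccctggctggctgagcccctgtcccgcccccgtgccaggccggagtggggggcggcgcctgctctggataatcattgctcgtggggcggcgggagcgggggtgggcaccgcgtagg
Igf2: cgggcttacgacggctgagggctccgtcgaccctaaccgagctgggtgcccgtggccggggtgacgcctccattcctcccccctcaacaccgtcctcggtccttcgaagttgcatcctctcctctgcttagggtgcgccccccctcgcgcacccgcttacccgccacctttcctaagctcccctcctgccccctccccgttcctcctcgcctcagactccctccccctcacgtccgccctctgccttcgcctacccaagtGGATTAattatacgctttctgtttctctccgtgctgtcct
The motif occurs in 2320 of 32851 promoter windows (7.06%) and in 2 of 24 windows of the identity list (8.33%). The counts come from the 3′ ends of transcripts and do not say which start was used.

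Ttr went the other way. It took 260138 ± 39398 CPM in Cisplatin nonstim and 167896 ± 20229 CPM in PBS nonstim (log2 fold change 0.79, SE 0.22, edgeR adjusted p = 0.00456). Ecrg4 averaged 2376 ± 662 CPM in Cisplatin nonstim and 1823 ± 166 CPM in PBS nonstim, with overlapping libraries (log2 fold change 0.45, SE 0.19, edgeR adjusted p = 0.0489). Sostdc1 averaged 687 ± 84.2 CPM in Cisplatin nonstim and 849 ± 67.0 CPM in PBS nonstim and was not called (log2 fold change 0.04, SE 0.20, edgeR adjusted p = 0.876). Over 23 alternatives the call of Ttr held in 17 and that of Ecrg4 in 5, and both were lost with PBS nonstim 1 added and with the ribosomal RNA-like covariate. Over the 20 identity genes tested, 5 were higher and 9 lower, with a median log2 fold change of -0.19. Adding PBS nonstim 1 gave 1 higher and 5 lower, and with the ribosomal RNA-like covariate 0 and 5.

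**Figure D3:**
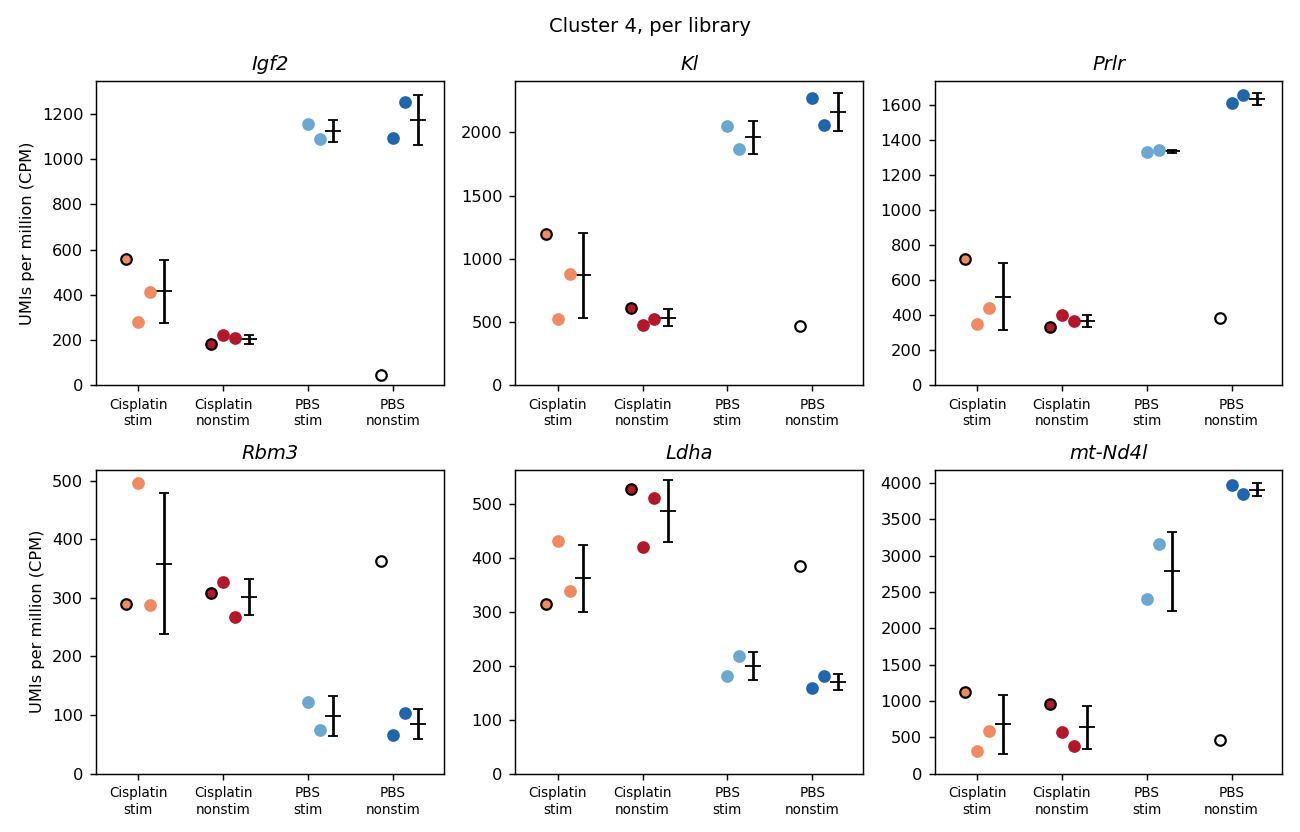
CPM of 6 genes in cluster 4 per library, by group, with the mean and SD of the fitted libraries at the right of each group (n = 3 in the cisplatin groups, n = 2 in the PBS groups). Black rims mark the first batch, and the open circle is PBS nonstim 1 with 7 cells, which is not in the mean. PBS stim 1, with 1 cell, is left out. Igf2, Kl, Prlr and mt-Nd4l are lower and Rbm3 and Ldha higher in all cisplatin libraries than in all fitted PBS libraries.

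Many genes that drive fluid secretion fell. Of 21 ion and water transport genes tested, 13 were lower and 1 higher, with a median of -0.69. Over all genes, 20.6% were lower and 18.3% higher. The sodium bicarbonate transporter gene Slc4a10 had 149.8, 136 and 127 CPM in Cisplatin nonstim, against 401 and 448 CPM in PBS nonstim (log2 fold change -1.59, SE 0.19, edgeR adjusted p = 3.63e-08), a call that held under every alternative. Slc12a2 averaged 281 ± 90.9 CPM in Cisplatin nonstim and 643 ± 5.09 CPM in PBS nonstim (log2 fold change -1.36, SE 0.17, edgeR adjusted p = 7.97e-08). Slc4a5, another bicarbonate transporter gene, and Trpm3 changed by -1.53 and -1.23 on the log2 scale. The list kept 4 lower calls with PBS nonstim 1 added, 5 with the ribosomal RNA-like covariate and 9 in cells with at most 10% mitochondrial UMIs.

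Transporter and matrix genes fell in part. Of 23 nutrient and drug transporters, 9 were lower and 1 higher. The efflux pump gene Abcc4 averaged 13.4 ± 3.87 CPM in Cisplatin nonstim and 52.1 ± 8.53 CPM in PBS nonstim (log2 fold change -1.98, SE 0.35, edgeR adjusted p = 3.33e-05). The organic anion transporter gene Slco1c1 changed by -0.96 (log2). Of 12 tight junction genes, 3 were lower and 0 higher, namely Cldn1 at -1.60, Cldn2 at -1.17 and Tjp1 at -1.50, a share near the 20.6% of all genes called lower. Of 11 genes for basement membrane and stromal signals, 8 were lower and 0 higher, with a median of -1.27. Col8a1, a short-chain collagen gene, averaged 94.4 ± 15.4 CPM in Cisplatin nonstim and 258 ± 39.3 CPM in PBS nonstim (log2 fold change -1.27, SE 0.21, edgeR adjusted p = 1.28e-05). With PBS nonstim 1 added, the lower calls numbered 3, 1 and 6 in these lists, and with the ribosomal RNA-like covariate 3, 0 and 1.

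Mitochondrial transcripts fell unevenly. All 13 mitochondrially encoded genes were lower, with log2 fold changes between -3.00 for mt-Atp8 and -0.69 for mt-Co3 and a median of -1.0. The complex I subunit gene mt-Nd4l had 954, 580.0 and 375 CPM in Cisplatin nonstim, against 3967 and 3840.1 CPM in PBS nonstim (log2 fold change -2.86, SE 0.21, edgeR adjusted p = 3.96e-14). The ATP synthase gene mt-Atp8 had 227, 156 and 127 CPM in Cisplatin nonstim, against 1257 and 1283 CPM in PBS nonstim (log2 fold change -3.00, SE 0.26, edgeR adjusted p = 6.74e-12). Both groups were far apart in these 2 genes, and their calls held under every alternative in which they were tested. The fraction of 31-base words shared with other genes is 0.989 for mt-Nd4l and 0.0747 for mt-Atp8, and its effect on these counts was not tested. The list kept 4 lower calls with PBS nonstim 1 added and 5 with the ribosomal RNA-like covariate. Lars2 carries ribosomal RNA-like sequence and had 216, 220.1 and 187 CPM in Cisplatin nonstim, against 2532 and 3899 CPM in PBS nonstim (log2 fold change -3.69, SE 0.25, edgeR adjusted p = 2.72e-15).

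Nuclear genes of energy metabolism moved the opposite way from mitochondrial ones, in numbers that depended on the fit. Of 54 oxidative phosphorylation genes, 47 were higher in Cisplatin nonstim and 0 lower, with a median of 0.71. Cox5a, a subunit of cytochrome c oxidase, averaged 579.9 ± 96.1 CPM in Cisplatin nonstim and 329 ± 92.5 CPM in PBS nonstim (log2 fold change 1.18, SE 0.20, edgeR adjusted p = 1.33e-05). When PBS nonstim 1 was added, 4 of these genes were higher, with the ribosomal RNA-like covariate 0, and in cells with at most 10% mitochondrial UMIs 15. Ribosomal proteins had 46 of 51 higher, but 0 with PBS nonstim 1 added and 0 with the covariate. Proteasome subunits were higher in 20 of 31, with 9 and 0 under the same alternatives.

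Glycolysis and cold-shock genes rose. Ldha, which converts pyruvate to lactate, had 529, 422 and 512 CPM in Cisplatin nonstim, against 159.9 and 181 CPM in PBS nonstim (log2 fold change 1.65, SE 0.19, edgeR adjusted p = 2.69e-08). The enolase gene Eno1 had 934, 895 and 1104 CPM in Cisplatin nonstim, against 390.5 and 324 CPM in PBS nonstim (log2 fold change 1.58, SE 0.20, edgeR adjusted p = 1.64e-07). No library of one group reached the other in either gene. Of 15 glycolysis genes, 12 were higher and 1 lower, with 3 higher when PBS nonstim 1 was added and 3 with the covariate. Rbm3, an RNA-binding protein induced by mild cold, had 309, 327 and 268 CPM in Cisplatin nonstim, against 66.5 and 103 CPM in PBS nonstim (log2 fold change 2.05, SE 0.25, edgeR adjusted p = 5.63e-08). The related gene Cirbp averaged 74.7 ± 21.1 CPM in Cisplatin nonstim and 25.8 ± 13.0 CPM in PBS nonstim (log2 fold change 1.71, SE 0.32, edgeR adjusted p = 8.08e-05). The calls of Ldha, Eno1 and Rbm3 held under every alternative, although PBS nonstim 1 lay near or above the cisplatin libraries in each.

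Genes of detoxification, metal binding and sterol synthesis were mostly higher where called. Over all genes, 18.3% were higher and 20.6% lower. Of 20 glutathione and Nrf2 genes, 11 were higher and 2 lower, with a median of 0.68. The glutathione peroxidase gene Gpx1 averaged 170.2 ± 20.4 CPM in Cisplatin nonstim and 83.4 ± 3.41 CPM in PBS nonstim (log2 fold change 1.30, SE 0.22, edgeR adjusted p = 1.56e-05). Sod1, the cytosolic superoxide dismutase gene, went the other way, at 179 ± 28.4 CPM in Cisplatin nonstim and 411 ± 21.2 CPM in PBS nonstim (log2 fold change -1.14, SE 0.18, edgeR adjusted p = 5.81e-06). Of 10 metal-handling genes, 6 were higher and 1 lower. Of 21 cholesterol synthesis genes, 8 were higher and 1 lower, among them Fdps at 1.47 and Nsdhl at 1.56 (log2). With PBS nonstim 1 added, the higher calls were 4, 1 and 5 in these lists, and with the covariate 1, 0 and 3.

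Of 14 p53 targets tested, 3 were higher and 2 lower, with a median of 0.08, beside 18.3% higher and 20.6% lower over all genes. With PBS nonstim 1 added 0 were higher and 1 lower, and with the ribosomal RNA-like covariate 0 and 0. The apoptosis gene Bax and Phlda3 changed by 0.83 and 0.97, while Mdm2, the ligase that degrades p53, and Zmat3 changed by -0.83 and -1.80 (log2). The calls held in 12 of 23 alternatives for Bax, 14 of 23 for Phlda3, 17 of 23 for Mdm2 and 20 of 22 for Zmat3. None of the 3 inflammatory genes tested and none of the 3 cell cycle genes tested was called. Among ER chaperones, 7 of 19 were lower and 0 higher, but 0 were lower with PBS nonstim 1 added and 2 with the covariate. The heat-shock protein gene Hsph1 averaged 36.1 ± 19.1 CPM in Cisplatin nonstim and 113 ± 0.491 CPM in PBS nonstim (log2 fold change -1.74, SE 0.25, edgeR adjusted p = 1.41e-06). Nuclear noncoding RNAs were lower in 5 of 6, Neat1 among them at -2.60. Malat1 was called lower (log2 fold change -1.68, SE 0.23, edgeR adjusted p = 5.59e-07) but reached 3938, 354 and 505 CPM in the Cisplatin nonstim libraries, with the first-batch library far above the others, against 1217 and 2152 CPM in PBS nonstim, and its direction turned when the batch term was dropped.

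Some markers of other cell types moved with the groups. The 7 oligodendrocyte markers summed to 288 to 1394 CPM in Cisplatin stim, 250 to 1115 CPM in Cisplatin nonstim, 140 to 218 CPM in PBS stim and 193 to 262 CPM in PBS nonstim libraries. The 7 astrocyte markers summed to 84.9 to 504 CPM in Cisplatin stim, 108 to 450.0 CPM in Cisplatin nonstim, 57.6 to 87.0 CPM in PBS stim and 81.0 to 82.7 CPM in PBS nonstim libraries. All 14 were detected in each group. The 6 fibroblast markers summed to 24.8 to 50.4 CPM in Cisplatin stim, 10.0 to 30.9 CPM in Cisplatin nonstim, 46.3 to 61.0 CPM in PBS stim and 72.7 to 76.3 CPM in PBS nonstim libraries, with Col3a1 and Lum at 0 in every group and Col1a1 at 0 in both PBS groups. Their part in the results was not tested.

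The cisplatin difference was set against that of cluster 3 in 1 model over both clusters of the same 10 libraries. It differed for 123 of 7373 genes (1.67%), with 95 (1.29%) more positive and 28 (0.380%) more negative in cluster 4, and 120 of the 123 (97.6%) were also called within cluster 4. Leaving out PBS nonstim 3 leaves a single PBS nonstim library, so how far the list rests on PBS nonstim 3 cannot be judged. Within cluster 3 alone 11 of 5730 genes (0.192%) were called over 12 libraries, all 11 also called in cluster 4, and 256 over the 10 libraries used for cluster 4.

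Among the named genes of this difference, Igf2 and Kl fell further in cluster 4. The joint model and the fit of each cluster alone use different libraries, so their values need not subtract exactly. For Igf2 the log2 fold change was -2.41 in cluster 4 and -0.82 in cluster 3, a difference of -1.25 (SE 0.24, edgeR adjusted p = 0.00259). In cluster 3 it had 191, 116 and 96.7 CPM in Cisplatin nonstim, against 273 and 302 CPM in PBS nonstim, the same direction on a lower level. For Kl the values were -2.05 and -0.61, a difference of -1.02 (SE 0.23, edgeR adjusted p = 0.00762). Other named genes differed the other way, and for Ndufa4 the log2 fold change was 1.02 in cluster 4 and -0.15 in cluster 3 (difference 1.00, SE 0.20, edgeR adjusted p = 0.00259). Timm8b, a mitochondrial import chaperone gene, Cops9, Atp5md, Smim8 and the ornithine decarboxylase antizyme gene Oaz1 differed by 0.93 to 1.56. Fos, an immediate early gene, had 348, 19.5 and 53.5 CPM in Cisplatin nonstim libraries of cluster 4 and 747, 15.6 and 16.7 CPM in those of cluster 3, and its difference was -3.07. The first-batch library stood far above the others in both clusters.

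Averaged over stimulated and unstimulated mice, cisplatin against PBS gave 3233 of 6662 genes called (48.5%), 1527 higher (22.9%) and 1706 lower (25.6%), over 6 and 4 libraries. Adding PBS nonstim 1 gave 2032, and the ribosomal RNA-like covariate 265. Prlr had 719, 352 and 442 CPM in Cisplatin stim, against 1331 and 1342 CPM in PBS stim, so the gap stood in the stimulated mice as well (log2 fold change -1.70, SE 0.14, edgeR adjusted p = 1.16e-12 for the average). Igf2, Kl, Rbm3, Ldha and Fdps also kept their calls under every alternative, with averaged log2 fold changes of -1.87, -1.61, 2.15, 1.38 and 1.39. Gnmt, a methyltransferase gene that uses S-adenosylmethionine, had 43.8, 99.6 and 40.7 CPM in Cisplatin stim, 50.7, 63.6 and 76.9 CPM in Cisplatin nonstim, 6.77 and 22.8 CPM in PBS stim and 12.5 and 9.54 CPM in PBS nonstim (log2 fold change 2.58, SE 0.28, edgeR adjusted p = 1.33e-09). Within cluster 3, 441 of 5730 genes were called (7.7%), of which 376 (85.3%) were also called in cluster 4. That fit used 12 libraries, the first-batch PBS libraries among them, so its count is not like for like with cluster 4. The count of cluster 3 over the 10 libraries of cluster 4 was higher and is given at the end. The averaged difference itself differed from that of cluster 3 for 229 of 7373 genes (3.11%), of which 221 (96.5%) were called in cluster 4, and for 6 genes without PBS nonstim 3.

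Genes that set cluster 4 apart from cluster 3 are described here by their cisplatin difference, with the cluster difference from PBS stim libraries 2 and 3 and the cisplatin difference from the nonstim libraries of cluster 4. Of 1134 genes higher in cluster 4 than in cluster 3 in both PBS stim libraries, with a median ratio of at least 2-fold, 62 (5.47%) were higher in Cisplatin nonstim and 465 (41.0%) lower, with a median log2 fold change of -0.64. Of 739 genes lower in cluster 4 by the same rule, 467 (63.2%) were higher in Cisplatin nonstim and 1 (0.135%) lower, with a median of 0.81. Over all 6662 genes the shares were 18.3% higher and 20.6% lower. Genes chosen in the PBS arm of cluster 4 carry any raised level of that arm into the cisplatin comparison, so the signs are set in part by the choice. With genes chosen in the 3 Cisplatin stim libraries instead, 52 (5.97%) of 871 genes higher in cluster 4 were higher in Cisplatin nonstim and 361 (41.4%) lower, with a median of -0.61, and of 661 genes lower in cluster 4, 246 (37.2%) were higher and 11 (1.66%) lower, with a median of 0.61. Genes are not independent replicates, so this is a description of these libraries.

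**Figure D4:**
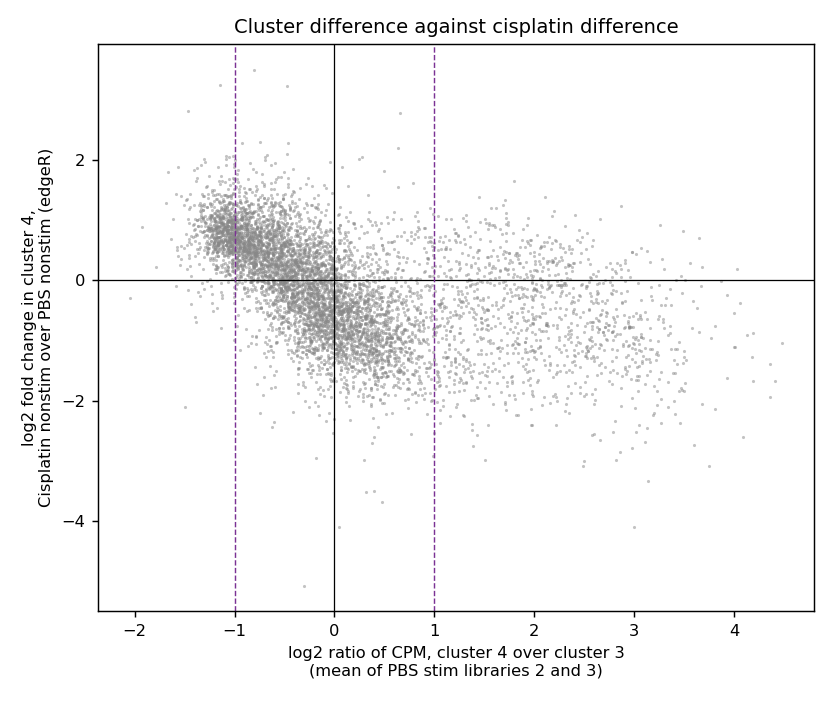
Each point is 1 of 6662 genes, with the log2 ratio of cluster 4 over cluster 3 in PBS stim libraries 2 and 3 on the x axis and the log2 fold change of Cisplatin nonstim over PBS nonstim in cluster 4 on the y axis. Dashed lines mark a 2-fold difference between the clusters. Points left of the dashed lines lie mostly above 0, with a median of 0.81 for genes lower in both libraries, and points right of them mostly below 0, with a median of -0.64.

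Stimulation changed few genes in cluster 4 of cisplatin-treated mice. Of 6662 genes, 10 were higher (0.150%) and 7 lower (0.105%) in Cisplatin stim than in Cisplatin nonstim, with 3 libraries each, and 478 had an unadjusted p under 0.05. None of the 16 calls examined one by one held under every alternative, and without a batch term there was none. When PBS nonstim 1 was added to the shared fit there were 3 calls, all higher, which were Eno1b, Rpl10-ps3 and a predicted gene. The count was 8 without Cisplatin stim 1 or without Cisplatin nonstim 1, 5 without Cisplatin stim 3 and 10 without Cisplatin nonstim 3.

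Igf2 rose with stimulation in this arm. It had 557, 277 and 414 CPM in Cisplatin stim libraries, against 181, 221 and 207 CPM in Cisplatin nonstim libraries, with no overlap (log2 fold change 0.90, SE 0.18, edgeR adjusted p = 0.00831). In cluster 3 the log2 fold change was -0.49, and the difference between clusters of 1.17 (SE 0.23, edgeR adjusted p = 0.007) was the 1 call among 7373 genes (0.0136%), lost when the second batch was taken alone. Within cluster 4 its call was lost when PBS nonstim 1 was added, at a log2 fold change of 1.02. The sharing of Igf2 words with other genes, given above, applies here as well. Kl had 1197, 526 and 879 CPM in Cisplatin stim, against 606, 471 and 522 CPM in Cisplatin nonstim, overlapping and not called (log2 fold change 0.63, SE 0.16, edgeR adjusted p = 0.101). Sod1 had 373, 266 and 285 CPM in Cisplatin stim, against 172, 155 and 211 CPM in Cisplatin nonstim (log2 fold change 0.75, SE 0.16, edgeR adjusted p = 0.0184). The metallothionein gene Mt1, which binds zinc and copper, averaged 605 ± 172 CPM in Cisplatin stim and 360.1 ± 64.9 CPM in Cisplatin nonstim (log2 fold change 0.70, SE 0.16, edgeR adjusted p = 0.0302). Fto, an RNA demethylase gene, rose by 1.21 (log2). Igf2, Sod1 and Fto had each been lower in Cisplatin nonstim than in PBS nonstim, and their Cisplatin stim means of 416 ± 139.7, 308 ± 56.9 and 61.0 ± 15.8 CPM lay below their PBS nonstim means of 1175 ± 110.2, 411 ± 21.2 and 66.9 ± 6.52 CPM. Both comparisons use the same Cisplatin nonstim libraries, so low values there lower a gene in the first and raise it in the second. Malat1 was called lower in both comparisons, and a return of genes towards PBS levels was not tested.

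Other calls rested on particular libraries or shared sequence. Usp50, a gene of the deubiquitinase family, had 13.2, 265 and 311 CPM in Cisplatin stim, against 24.2, 66.4 and 120.4 CPM in Cisplatin nonstim, with the first-batch Cisplatin stim library lowest of all (log2 fold change 1.62, SE 0.23, edgeR adjusted p = 3.96e-05). Eno1b and Rpl10-ps3, called higher in the same 2 second-batch libraries, share 89.0% and 96.5% of their 31-base words with other genes, so their reads may be split with Eno1 and Rpl10. Eno1 itself was lower, at 631, 706 and 361 CPM in Cisplatin stim, against 934, 895 and 1104 CPM in Cisplatin nonstim (log2 fold change -0.81, SE 0.17, edgeR adjusted p = 0.0106), and the sum of Eno1 and Eno1b was 658, 872 and 667 CPM in Cisplatin stim, against 963, 936 and 1167 CPM in Cisplatin nonstim. Bc1, a small cytoplasmic noncoding RNA, was called higher at 1.42, with 40.6% of its words shared.

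Genes called lower in Cisplatin stim were Gstp1, Polr2l, Hist2h2aa1, Apoc1, Eno1, Malat1 and a predicted gene. Gstp1, a glutathione transferase gene, had 17.5, 20.2 and 12.4 CPM in Cisplatin stim, against 72.7, 45.9 and 43.5 CPM in Cisplatin nonstim (log2 fold change -1.61, SE 0.32, edgeR adjusted p = 0.00584), with 38.5% of its words shared with other genes. Polr2l, a small subunit shared by the RNA polymerases, had 307, 277 and 149 CPM in Cisplatin stim, against 423, 425 and 485 CPM in Cisplatin nonstim (log2 fold change -0.92, SE 0.18, edgeR adjusted p = 0.00584). The groups did not overlap in either gene. Apoc1, an apolipoprotein gene, had 43.8, 26.5 and 37.2 CPM in Cisplatin stim, against 275, 36.9 and 76.9 CPM in Cisplatin nonstim, where the groups overlapped and the first-batch nonstim library stood far above the rest (log2 fold change -1.26, SE 0.29, edgeR adjusted p = 0.0302).

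**Figure D5:**
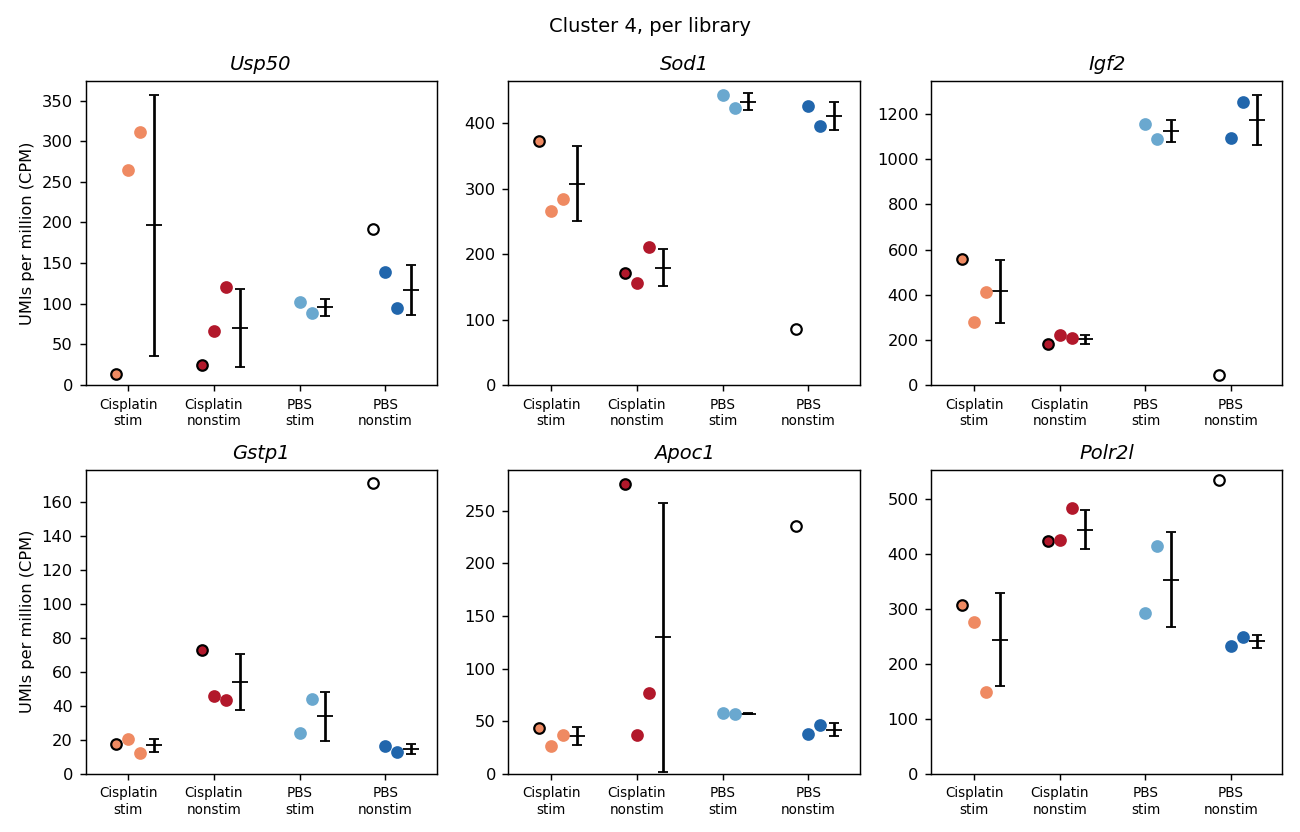
CPM of 6 genes in cluster 4 per library, by group, with the mean and SD of the fitted libraries at the right of each group (n = 3 in the cisplatin groups, n = 2 in the PBS groups). Black rims mark the first batch, the open circle is PBS nonstim 1 with 7 cells, which is not in the mean, and PBS stim 1 is left out. Sod1 and Igf2 are higher and Gstp1 and Polr2l lower in all Cisplatin stim than in all Cisplatin nonstim libraries.

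In PBS mice, stimulation gave 5 calls of 6662 (0.0751%), all lower in PBS stim, over 2 libraries against 2, and 402 genes had an unadjusted p under 0.05. They were mt-Nd3, mt-Co3, Meg3, Wfikkn2 and a predicted gene. The count was 1 without PBS stim 3, 8 without PBS stim 2, 2 without PBS nonstim 3 and 17 without PBS nonstim 2. Cisplatin libraries share the spread in this fit, and leaving out Cisplatin stim 1 or Cisplatin nonstim 1 gave 14 and leaving out Cisplatin stim 2 gave 9. Mt-Nd3 had 3207 and 2643 CPM in PBS stim, against 4164 and 7342 CPM in PBS nonstim (log2 fold change -1.10, SE 0.21, edgeR adjusted p = 0.0162). Wfikkn2, a secreted protease inhibitor gene, had 10.2 and 24.1 CPM in PBS stim, against 78.9 and 36.6 CPM in PBS nonstim (log2 fold change -1.68, SE 0.35, edgeR adjusted p = 0.0368). The groups did not overlap in either gene, but the 2 PBS nonstim libraries lay far apart. The fraction of 31-base words shared with other genes is 0.981 for mt-Nd3, 0.999 for mt-Co3, 0.0496 for Meg3 and 0.00896 for Wfikkn2. The 4 rule markers were not called, with log2 fold changes of -0.01 for Ttr, 0.17 for Ecrg4, -0.20 for Sostdc1 and -0.41 for Prlr. Ecrg4 differed between the clusters, with 0.17 in cluster 4 and -0.74 in cluster 3 (difference 1.04, SE 0.22, edgeR adjusted p = 0.00969), 1 of 7 such genes among 7373 (0.0949%), none of which was called within either cluster.

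The effect of stimulation differed between cisplatin and PBS mice for 13 of 6662 genes (0.195%), 7 more positive (0.105%) and 6 more negative (0.0901%) in the cisplatin arm, and for 586 at an unadjusted p under 0.05. Once PBS nonstim 1 was added there was none, and the count was 28 without Cisplatin stim 2, 5 without Cisplatin stim 3 and 3 without PBS stim 3. For Gstp1 the effect of stimulation was -1.61 in cisplatin mice and 1.18 in PBS mice, an interaction of -2.79 (SE 0.51, edgeR adjusted p = 0.0044). For Polr2l it was -0.92 and 0.45, an interaction of -1.37 (SE 0.28, edgeR adjusted p = 0.0141). For Igf2 it was 0.90 and -0.18, an interaction of 1.08 that was not called (SE 0.26, edgeR adjusted p = 0.061). Between clusters 4 and 3 the interaction differed for 0 of 7373 genes by edgeR, with 401 at an unadjusted p under 0.05.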

How the data were processed

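Single-cell 3′ libraries of 12 hippocampal samples were counted with Cell Ranger 5.0.0 against mm10 and analysed with Scanpy, per the submitters' processing notes. The deposited matrix holds raw UMI counts for 32285 genes and 19834 cells, and the authors' cell table gives cell type, cluster, library and a doublet score per cell. No further cells were removed. Counts were summed per library over cluster 4 cells, and libraries with at least 10 cells (10 of 12) were fitted with edgeR 4.0.16 in R 4.3.3: TMM scaling, filterByExpr, a quasi-likelihood test with the 4 groups and batch as terms, and Benjamini-Hochberg adjustment over all genes tested, with a call at adjusted p under 0.05. Residual degrees of freedom were 5. The difference from cluster 3 was fitted on the sums of both clusters with library as a block. Alternatives used DESeq2 1.42.0 and limma 3.58.1 (limma-voom), other filters and left-out libraries. CPM values are plain shares of the summed UMIs, while fold changes are adjusted for batch. The members, gene lists and tests were chosen with earlier results of these data known. Named genes are the rule markers, the 12 genes at each end of the cluster ratio, up to 12 calls per direction ranked by adjusted p (6 for the difference) and up to 4 genes of each list ranked by p, without predicted genes; examples between clusters were chosen freely, and some items are not reported here. The fit was tested on simulated data. Depth per library sum limits precision, since the smallest fitted sum holds 228128 UMIs.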

Additional observations from a re-analysis of the deposited data

Results flagged for a closer look

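The effect of stimulation in cluster 4 differed between cisplatin and PBS mice for 12 named genes, by a test of the interaction in edgeR. The log2 effect in cisplatin mice minus that in PBS mice was 2.02 for Usp50, 2.60 for Wfikkn2, 2.42 for Eno1b, 2.68 for Rpl10-ps3, 1.85 for Col1a2, 1.32 for mt-Nd3 and 1.14 for mt-Nd1. It was -2.79 for Gstp1, -2.92 for Hist2h2aa1, -1.37 for Polr2l, -1.27 for Fabp3 and -1.15 for Eno1. Eno1b, Rpl10-ps3 and Hist2h2aa1 share 89.0%, 96.5% and 89.7% of their 31-base words with other genes. For mt-Nd3 the shared fraction is 0.981. None of the 13 calls was left when PBS nonstim 1 was added.

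The difference between Cisplatin nonstim and PBS nonstim was not the same in cluster 4 and cluster 3 for 12 named genes. The log2 effect in cluster 4 minus that in cluster 3 was -3.07 for Fos, -2.51 for Gramd1b, -1.33 for Malat1, -1.25 for Igf2, -1.02 for Kl and -1.01 for Trpm3. It was 0.93 for Atp5md, 1.00 for Ndufa4, 1.00 for Oaz1, 1.09 for Cops9, 1.10 for Timm8b and 1.56 for Smim8. How far the 123 calls rest on PBS nonstim 3 cannot be judged, since leaving it out leaves a single PBS nonstim library.

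Between Cisplatin stim and Cisplatin nonstim, Igf2 differed by 1.17 between the clusters. Between PBS stim and PBS nonstim the difference was -1.31 for Malat1, 0.96 for Cst3, 1.03 for Fkbp2, 1.04 for Ecrg4, 2.06 for Tmco1 and 4.10 for Ctss. Ctss is a defining gene of microglia, and in cluster 4 it had 5.64 and 41.9 CPM in PBS stim, against 16.6 and 9.54 CPM in PBS nonstim, while in cluster 3 it had 1.71 and 5.78 CPM in PBS stim, against 59.6 and 16.0 CPM in PBS nonstim. For cisplatin against PBS averaged over stimulation it was 0.83 for Cox8b, 0.74 for Cox5a, 0.75 for Atp5mpl, -1.57 for Sptbn1, -2.55 for Dusp1 and -1.09 for Miga1.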

How the results depend on the processing

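Of 3728 alternative values of 189 named results, 3248 kept their direction and their side of the threshold, 450 lost the call, 25 changed sign and 5 moved; 118 of the 189 held with every library left out in turn. The calls below are counts of genes at adjusted p under 0.05 in cluster 4 unless said otherwise, for Cisplatin nonstim against PBS nonstim (2589), stimulation after cisplatin (17) and after PBS (5), the interaction (13) and cisplatin averaged over stimulation (3233). DESeq2 gave 1527, 7 and 2144 for the first, second and last of these. Limma-voom gave 26 and 16 for stimulation after cisplatin and PBS and 22 for the interaction. Cells with at most 10% mitochondrial UMIs gave 577, 11, 1, 4 and 1474. The ribosomal RNA-like share as a covariate gave 168, 1, 5 and 265 for all but stimulation in cisplatin mice, and under it 19.6% of the cisplatin calls were higher, against 47.0%. Adding libraries with 5 to 9 cells (chosen after seeing the data) gave 908, 3, 0, 0 and 2032. Leaving out PBS nonstim 3 and PBS stim 2 together (chosen after seeing the data) gave 915, 1 and 1820 for cisplatin, stimulation in PBS mice and the average. Without a batch term, stimulation in either arm and the interaction gave 0. Stimulation in PBS mice gave 3 without mitochondrial and ribosomal RNA-like transcripts, 12 without a filter on low counts, 12 in the second batch alone and 8 with only the compared groups. Stimulation in cisplatin mice gave 8 in the second batch alone. The difference between clusters gave 75, 2 and 4 without a filter for cisplatin and for stimulation in cisplatin and PBS mice, and 0 for stimulation in cisplatin mice in the second batch. Cluster 3 on the same 10 libraries (chosen after seeing the data) gave 256 for cisplatin, 5 for the interaction and 1059 for the average.

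Leaving out each library in turn gave 1129 to 2612 for cisplatin, 5 to 23 and 1 to 17 for stimulation in cisplatin and PBS mice, 3 to 28 for the interaction and 2413 to 3431 for the average. The cluster difference ranged over 0 to 203, 0 to 5, 3 to 21, 0 to 3 and 6 to 444 in the same order. The lowest cisplatin count, and the lowest cluster differences for cisplatin and for the average, came without PBS nonstim 3. Leaving it out leaves a single PBS nonstim library. Without Cisplatin stim 3 and without PBS stim 3 the stimulation counts fell to 5 in cisplatin and 1 in PBS mice.

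Within the second batch, replicate numbers did not pair the cisplatin libraries. Correlations were 0.104 and 0.0883 for the same number and 0.0841 and 0.118 for different numbers. The first-batch cisplatin libraries, both of replicate 1, correlated at 0.232 with each other and at -0.192 to -0.129 with the second-batch libraries of the other cisplatin group. PBS libraries of the same number correlated at -0.0423. With 2 libraries per PBS group, the value of 0.0423 for different numbers is only its mirror image. The replicate block gave 2424, 19, 7, 11 and 3031 calls, and within drug arms 8 for stimulation in PBS mice. It left 122 of 129 named values on their side of the threshold, took the call of 6 and turned 1.

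Some values changed sign. Sostdc1 for cisplatin was -0.12 with at most 10% mitochondrial UMIs, -0.11 without a batch term, -0.080 with only the compared groups and -0.047 to 0.31 without single libraries. Malat1 for cisplatin was 0.11 without a batch term, and its cluster difference was -1.80 to 0.26 without single libraries, with 0.26 without Cisplatin nonstim 2. For stimulation in PBS mice, Ttr was 0.026 without a filter, 0.0019 with the replicate block, 0.16 with smaller libraries and -0.092 to 0.11 without single libraries. In the same comparison Ecrg4, Prlr and Igf2 were -0.16, 0.021 and 0.28 with at most 10% mitochondrial UMIs, Igf2 was 0.20 with smaller libraries, and Sostdc1 was 0.025 without PBS nonstim 3 and PBS stim 2. For stimulation in cisplatin mice Prlr was -0.034 in the second batch, and without single libraries Prlr was -0.033 to 0.59, Ttr -0.25 to 0.12 and Ecrg4 -0.43 to 0.030. The cause of these changes was not tested.

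No first-batch PBS library entered the cluster 4 fit, so batch and drug are separated only through the cisplatin libraries. The PBS groups hold 2 libraries each, libraries pool animals, and the 3′ counts cannot assign reads shared between near-identical genes.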
